A study of Drosophila melanogaster with 4 samples.

Results

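The compact autosomal sites with the most Hsp90 tags per base are 512 short regions on chromosome arms 2L, 2R, 3L and 3R of Drosophila melanogaster. They are 512 of 9015 regions where peaks of both Hsp90 replicates overlap, and of 6722 such regions on these 4 arms that are under 3000 bp, here called compact regions. They were chosen by measured values: each Hsp90 peak on the 4 arms was ranked by its chromatin immunoprecipitation sequencing (ChIP-seq) tags divided by its length, and the top 10% of each replicate were taken. Overlapping peaks of both replicates were merged, and a merged region under 3000 bp was kept where it held a top-10% peak of each replicate.

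The samples were 2 biological replicates of an Hsp90 immunoprecipitation and 2 of input chromatin, all from DRSC-S2, a cultured Drosophila line. The cells grew at 25°C in Schneider's medium with 10% serum, were dividing exponentially and were fixed with formaldehyde. No label gives a genotype change, a heat shock or another treatment, and the antibody is a non-commercial one, so the data describe a single growth condition. Both replicates came from the same line, and the inputs enter only through the authors' peak values. Replicate 1 rested on 13383895 unique ChIP tags and replicate 2 on 17401846.

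Hsp90 is an abundant ATP-dependent chaperone that helps client proteins, among them kinases and transcription regulators, to stay stable and active. Most of it is cytosolic, but a part is found on chromatin, and the series' title gives paused promoters as its target. At a paused promoter RNA polymerase II starts transcription and then halts a short way downstream, held by factors such as the negative elongation factor NELF. Polymerase pausing is widespread in Drosophila and was first worked out on its heat-shock genes. No gene is assigned to a region below, since a gene annotation or genome sequence of the build used for the peaks (dm3, per the submitters' processing notes) was not used here. For the same reason no sequence is printed.

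The values that chose these sites are given first, as a description. The lowest density that placed a peak in the top 10% was 420 tags per kb in replicate 1 (902 of 9029 peaks) and 563 tags per kb in replicate 2 (926 of 9268). Divided by the unique tags of each library, to give a scaled density in tags per kb per 1000000 unique tags, these limits were close, at 31.3 and 32.4. The scaled density of the densest peak of the 512 sites ran from 31.4 to 81.1 in replicate 1, with a median of 37.5. In replicate 2 it ran from 32.4 to 67.3, with a median of 38.4. Over all compact regions the medians were 20.1 and 22.0.

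The median length of the sites, which the rule holds under 3000 bp, was 1100 bp, with quartiles at 852 and 1639 bp. It was 949.5 bp over all compact regions. Together the sites covered 0.658 Mb. Relative to the number of unique ChIP tags, their peak tags came to 2.35% for replicate 1 and 2.38% for replicate 2. The sources used here do not say whether the peak tags were counted after duplicates were removed, so these percentages and all scaled densities compare peak tags with unique tags without that being known. The densest peak held a median of 530 tags in replicate 1 (range 155 to 1695) and 698 in replicate 2 (202 to 2580). At these medians, counting alone gives the log2 ratio of the replicates an SD of 0.08.

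Not every dense peak became part of these sites. Of the 902 dense peaks of replicate 1, 524 lay in the 512 sites, 205 in shared regions of 3000 bp or more, and 156 in compact regions where replicate 2 had no dense peak. The last 17 had no partner in replicate 2. Of the 926 dense peaks of replicate 2, 515 lay in the sites, 131 in the longer regions, 248 in compact regions that were not dense in replicate 1, and 32 had no partner.

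The 10 densest sites, by the mean of their ranks in both lists, lay on all 4 arms: 3 on 2L, 3 on 2R, 2 on 3L and 2 on 3R. First was chr2R:14539913-14540998, a 1086 bp site. Its scaled density was 81.1 in replicate 1 (95% Poisson interval 76.2 to 86.4, from 984 tags) and 64.7 in replicate 2 (61.0 to 68.5, from 1149 tags). It ranked first in replicate 1 and second in replicate 2, and its folds over input were 15.98 and 11.32.

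The site chr3R:11818635-11819427, of 793 bp, was nearly as dense, with scaled densities of 72.7 and 67.3 and ranks of 3 and 1. Its folds were much smaller, at 6.64 and 4.98. Density alone therefore did not place a site among those most enriched over input. The site chr2R:2038471-2039106, of 636 bp, had scaled densities of 64.3 and 58.7 and folds of 7.11 and 5.51. On chr3R:15394214-15395209 the scaled densities were 67.8 and 55.3, and the folds of 17.84 and 12.71 were among the highest of all sites.

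On 2L the densest site was chr2L:12005326-12007974, one of the longer sites at 2649 bp, with scaled densities of 63.0 and 56.2 and folds of 6.11 and 5.14. The 63.0 came from a 1122 bp peak, the denser of 2 in replicate 1, and the 56.2 from a 2639 bp peak of replicate 2. With all peak tags divided by the whole length of the site, the values were 50.5 and 56.0. Next on that arm was chr2L:14409230-14410065, with scaled densities of 53.7 and 58.9 and folds of 7.81 and 6.81. The densest on 3L was chr3L:16044623-16046795, with scaled densities of 62.5 and 56.0 but folds of only 4.33 and 3.58. Its neighbour in rank on 3L, chr3L:10729679-10731133, was alike, with scaled densities of 57.1 and 58.6 and folds of 4.70 and 4.41. The other two of the 10 were chr2R:13149142-13149968, with folds of 13.65 and 9.13, and chr2L:5403347-5404277, with folds of 9.23 and 7.44.

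**Figure D1:**
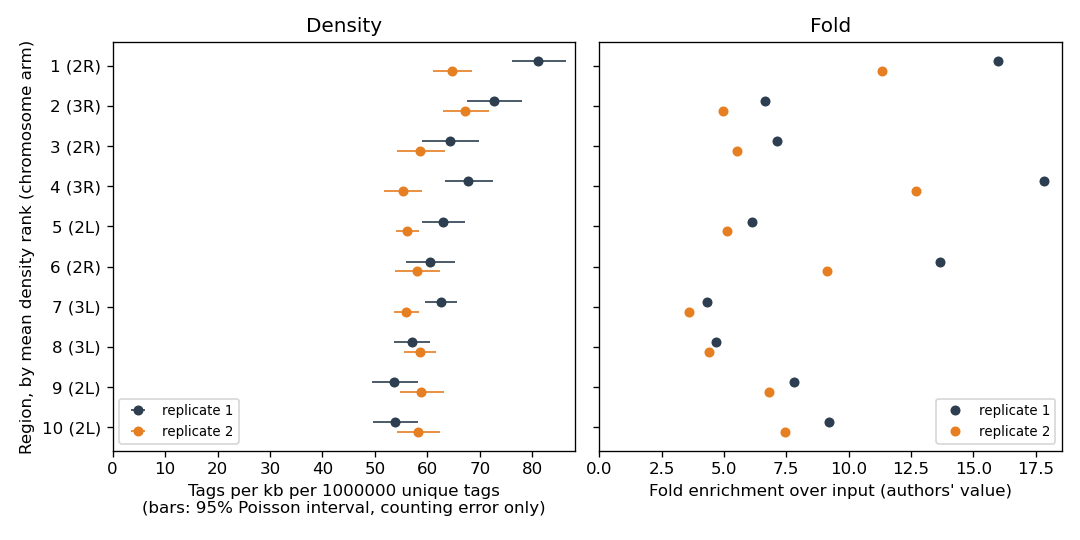
Scaled density in tags per kb per 1000000 unique tags (left, with 95% Poisson intervals for counting error) and the authors' fold enrichment over input (right) in each replicate, for the 10 densest sites in order of their mean rank. Densities lie between 53.7 and 81.1 in replicate 1 and between 55.3 and 67.3 in replicate 2, while folds run from 4.33 to 17.84 and from 3.58 to 12.71.

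The fold enrichment, which the authors' peak caller gives as ChIP over the background expected from input, was not part of the rule, but it comes from the same ChIP tags and is also a description. Its median over the 512 sites was 7.56 in replicate 1 (interquartile range 6.17 to 9.91) and 6.92 in replicate 2 (5.64 to 8.72). Over all compact regions the medians were 5.17 and 5.23. A fold of 10 or more in both replicates was found at 69 of the 512 sites (13.5%, exact 95% binomial interval 10.6 to 16.7%), against 1.64% of all compact regions. At the other end, 44 sites (8.59%, 6.31 to 11.4%) lay under the median fold of compact regions in both replicates, against 39.9% of all compact regions.

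Among the sites, density said little about fold. Across the 512 sites, which share 2 libraries, the Spearman rho of density with fold was 0.07 in replicate 1 and 0.08 in replicate 2, against 0.68 and 0.63 over all 6722 compact regions. The sites span a narrower range of density than all regions do. When peaks were ranked by fold in place of density, 525 regions met the same rule, and 167 of them were among the 512 sites (32.6% of the sites and 31.8% of the regions ranked by fold).

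**Figure D2:**
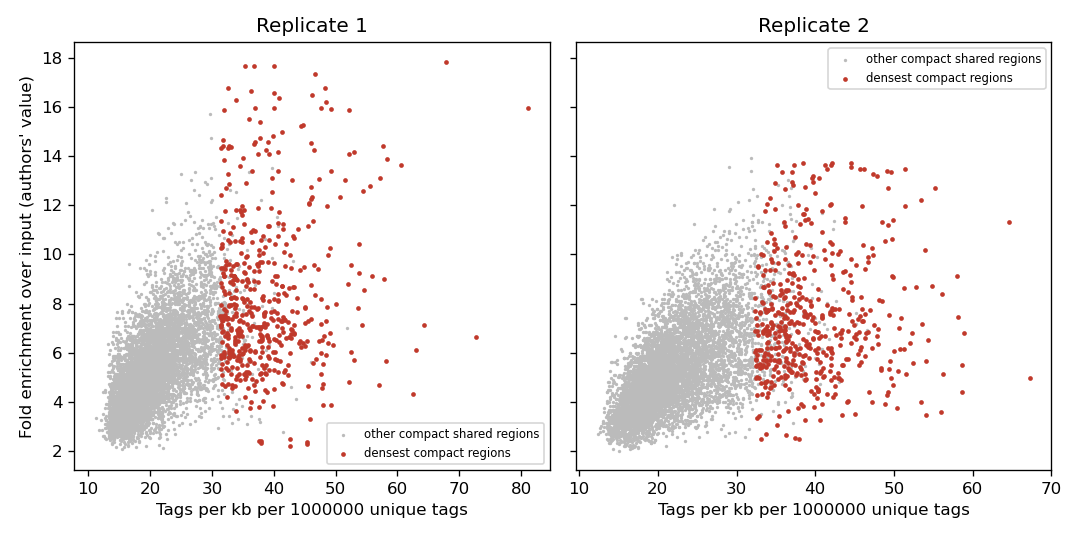
Fold enrichment over input against scaled density (tags per kb per 1000000 unique tags) for the densest peak of each compact region, in replicate 1 (left) and replicate 2 (right). The 512 densest sites (red) spread from a fold of 2.20 to 17.84 in replicate 1 and from 2.47 to 13.73 in replicate 2, and the other 6210 compact regions are in grey.

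The 5 sites with the highest mean fold lay on 3R (3), 3L and 2R. They were chr3R:26425211-26426891 with folds of 17.67 and 13.48, chr2R:12465798-12466649 with the same pair of folds, chr3R:20374354-20375105 with 17.35 and 13.73, the site on 3R at 15394214 described above, and chr3L:11240440-11241845 with 16.78 and 13.64. Their densities were not all high. The site on 3L ranked 728 by density in replicate 1 and 181 in replicate 2, with scaled densities of 32.6 and 42.1.

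A few sites were dense in tags but little enriched over input. A fold under 3 in both replicates was found at 5 of 512 sites (0.977%, exact 95% interval 0.318 to 2.26%), against 1.86% of all compact regions. These 5 were also the sites with the lowest mean fold. They were chr2R:20615386-20617027 (folds of 2.29 and 2.48), chr3R:834008-834937 (2.39 and 2.47), chr2R:1796356-1797360 (2.20 and 2.68), chr2R:6509825-6511196 (2.47 and 2.51) and chr3L:17730120-17731343 (2.35 and 2.66).

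These 5 sites were picked for a low fold in both replicates, so their low place in both was set by the choice. The authors' false discovery rate at these 5 sites was 11.79% to 11.95% in replicate 1 and 3.88% to 9.79% in replicate 2. Over the 512 sites the rate had medians of 4.84% and 0.73%, and over all compact regions 11.45% and 3.19%. The rate was under 5% at 280 sites in replicate 1 (54.7%, against 8.26% of all compact regions) and at 507 in replicate 2 (99.0%, against 66.1%). A score of 3100 or more in both replicates was listed for 11 sites (2.15%), against 0.164% of all compact regions. The rule used the same tags, so nothing is read from these shares.

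The rule demands a high density in both replicates, so the densities of the sites are bound to resemble each other, and their spread is a description. Over the 512 sites the log2 ratio of the scaled densities, replicate 2 over replicate 1, had an SD of 0.18 around a median of 0.04. That spread is above the 0.08 that counting alone gives. The densities differed by less than 1.2 times at 431 sites (84.2%), against 75.2% of all compact regions. The 95% Poisson intervals of the replicates overlapped at 404 (78.9%), against 86.1%, with a median of 530 tags per peak of replicate 1 at the sites and 231 over all compact regions. By density, 13 of the densest 25 sites of each replicate were the same, as were 59 of the densest 100. The folds were higher in replicate 1 at 380 sites (74.2%, exact 95% interval 70.2 to 78.0%), against 48.9% of all compact regions. They differed by less than 1.5 times at 488 sites (95.3%), near the 94.0% of all compact regions.

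For a reading that asks for a high density in a single list, compact regions dense in that replicate were looked up in the other. Both lists still enter, since a compact region needs a peak of each, and the 17 and 32 dense peaks with no partner are left out. The 512 regions dense in both are the sites themselves and are part of the shares of all compact regions, so this too is a description. Of 665 compact regions dense in replicate 1, 512 were dense in replicate 2 (77.0%, exact 95% interval 73.6 to 80.1%), against 11.3% of all compact regions. Of 760 dense in replicate 2, 512 were dense in replicate 1 (67.4%, 63.9 to 70.7%), against 9.89%. The regions dense in replicate 1 had a median density percentile of 94.9 in the list of replicate 2, with a lowest value of 62.9. Those dense in replicate 2 had a median percentile of 93.4 in the list of replicate 1, with a lowest value of 52.6.

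**Figure D3:**
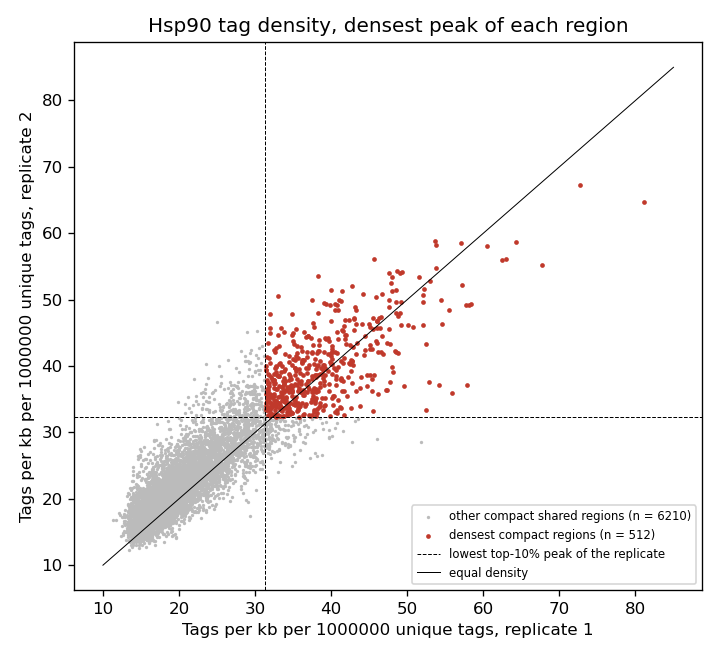
Scaled density (tags per kb per 1000000 unique tags) of the densest peak of each compact region, replicate 1 against replicate 2, with dashed lines at the lowest top-10% peak of each list (31.3 and 32.4). The 512 sites (red) lie above both lines by the rule, and the grey points beyond a single line are the 153 and 248 regions dense in replicate 1 or replicate 2 alone.

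The limit itself falls within a continuous range. Just inside it in replicate 1 were chr2R:14434223-14435179, chr3R:13769280-13770157 and chr2R:8791642-8792388, with 420.1 to 420.3 tags per kb. Just outside were chr3R:6061445-6063003, chr2R:5762412-5763234 and chr3L:12399761-12402178, with 419.4 to 419.5. These regions also missed the limit of replicate 2, with 498.7 to 558.0 tags per kb there. In replicate 2 the sites just inside, chr3R:9801614-9802443, chr2L:9887784-9888442 and chr3R:7588969-7590633, had 563.2 to 563.8 tags per kb. The regions just outside, chr2L:9203230-9204550, chr3R:21847150-21848248 and chr3L:17988228-17989227, had 563.0 to 563.2. They also missed the limit of replicate 1, with 346.7 to 409.1 tags per kb there.

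The 5 sites with the largest difference between the replicates were mostly ones where the authors' peaks had different lengths. At chr3L:8074521-8075402 the scaled density was 52.5 in a 383 bp peak of replicate 1 and 33.4 in an 882 bp peak of replicate 2, a log2 ratio of -0.65. With all peak tags of the site divided by its whole length, the log2 ratio was 0.05. At chr3R:2178762-2180531 it moved from -0.64 to 0.24, at chr2R:11226634-11227602 from -0.64 to 0.17, and at chr2R:9813492-9814839 from 0.58 to -0.14. The sign thus turned at these 4 sites between the values of the densest peak and those of the whole site, which differ in length and, where a replicate has several peaks, in tags. Tags outside the called peaks are not counted in the whole-site values, although the full length divides them. At chr2R:11226634-11227602 replicate 1 thus went from 55.9 in a 553 bp peak to 31.9 over 969 bp, so a turn of sign can follow from uncounted tags. At chr3R:677905-678713, where the peaks were 809 and 715 bp long, the ratio stayed positive, at 0.61 and 0.43.

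Most sites held a single peak. In 449 of 512 sites (87.7%, exact 95% interval 84.5 to 90.4%) each replicate had 1 peak, against 88.6% of all compact regions. Replicate 1 split 43 sites into several peaks and replicate 2 split 28, with 8 split in both. In the sites with 1 peak each, the median distance between the summits of the replicates was 21 bp, with quartiles at 8 and 43 bp. They were within 50 bp at 345 of 449 sites (76.8%, 72.7 to 80.7%), against 76.3% of all compact regions. The share at the dense sites was thus near that of the background. At 19 of these 449 sites the summits were more than 500 bp apart. No values over all compact regions were computed for this count or for the sites split in each replicate.

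Summit agreement followed the fold within the sites. Of the 171 sites with the lowest mean folds (2.39 to 6.41), 63.8% of those with 1 peak each had summits within 50 bp (exact 95% interval 55.6 to 71.4%). For the middle 170 sites (6.42 to 8.37) the share was 74.7% (66.8 to 81.5%). For the 171 sites with the highest folds (8.37 to 15.6) it was 92.1% (86.5 to 95.8%), and the median distance was 13 bp. The scaled densities of the 3 groups were alike, with medians of 37.8, 36.4 and 37.9 in replicate 1 and 38.2, 37.8 and 39.3 in replicate 2. Their lengths were not, with medians of 1286, 1178 and 930 bp, and the part of length in this difference was not tested. The other compact regions in the same 3 fold ranges had summits within 50 bp in 72.3%, 88.8% and 96.1%, at median lengths of 866, 918 and 843 bp.

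**Figure D4:**
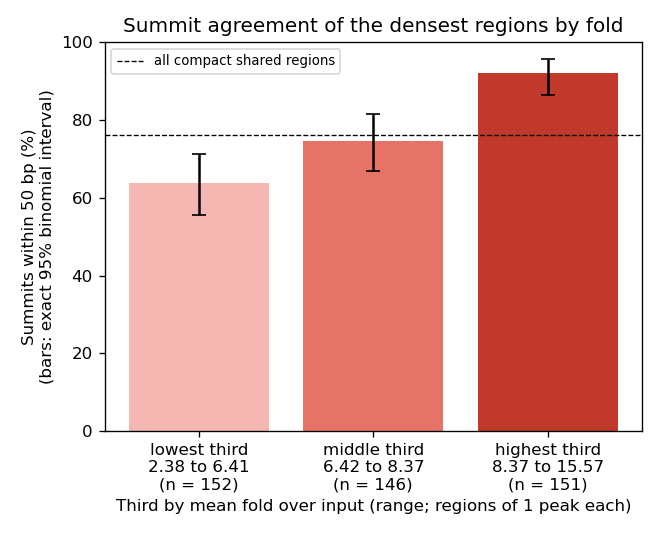
Share of sites with 1 peak in each replicate whose summits lay within 50 bp, for the 512 sites split into 3 groups by mean fold over input, with exact 95% binomial intervals. The share was 63.8% in the group with the lowest folds, 74.7% in the middle and 92.1% in the highest, and the dashed line is the 76.3% of all compact regions. That line is not split by fold. The other compact regions of the same 3 fold ranges, not drawn, reached 72.3%, 88.8% and 96.1%, each above the sites.

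The position of a site along its arm was not used by the rule, apart from the length limit and the merging of overlapping peaks. The gap to the nearest shared Hsp90 region had a median of 468 bp (interquartile range 93 to 3299 bp), against 938 bp over all compact regions. A shared region lay within 5 kb of 419 of 512 sites (81.8%, exact 95% interval 78.2 to 85.1%), near the 80.9% of all compact regions. Within 500 bp the share was 51.2% (262 sites, 46.7 to 55.6%), against 41.0%. A gap of more than 20 kb was found at 31 sites (6.05%, 4.15 to 8.48%), against 3.75%.

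Thus the sites held a larger share than all compact regions both of close neighbours and of wide gaps. No test was made of either difference, since regions close together are not independent. Among the sites, close neighbours were more frequent at low fold: 64.3% of the 171 sites with the lowest folds had a neighbour within 500 bp (exact 95% interval 56.7 to 71.5%), 46.5% of the middle group (38.8 to 54.3%) and 42.7% of the highest (35.2 to 50.5%). These shares were not computed for other compact regions by fold. The groups also differed in length, with medians of 1286, 1178 and 930 bp, and the part of length was not tested. The nearest shared region was another dense site for 66 of the 512 (12.9%, exact 95% interval 10.1 to 16.1%), against 7.45% of all compact regions. It was a less dense compact region for 420, and a region of 3000 bp or more for 26. Between neighbouring dense sites on an arm the median gap was 87493.5 bp, and 69 of 508 such gaps (13.6%) were 5 kb or less. No values over all compact regions were computed for the less dense and longer neighbours or for these gaps.

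**Figure D5:**
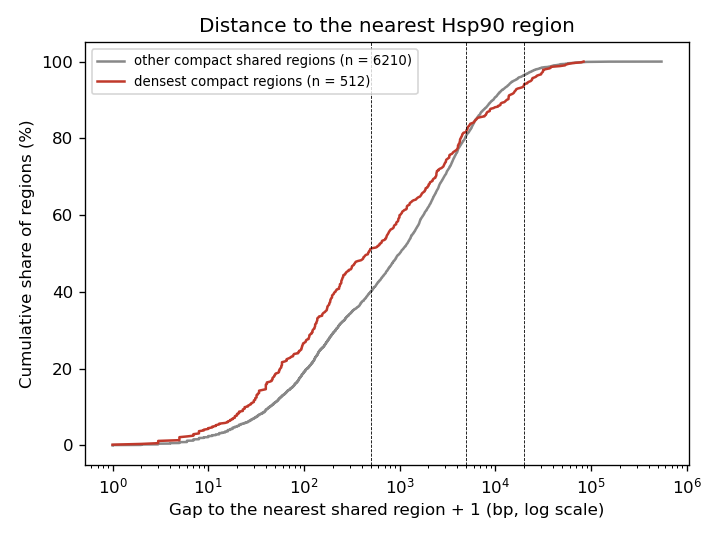
Cumulative share of regions by the gap to the nearest shared Hsp90 region (bp plus 1, log scale), for the 512 dense sites (red) and the other 6210 compact regions (grey), with dashed lines at 500 bp, 5 kb and 20 kb. The lines part below 500 bp, and at 500 bp the dense sites reach 51.2% and the others 40.2%. They are close at 5 kb, at 81.8% and 80.9%. At 20 kb the order is reversed, with wider gaps at 6.05% of the dense sites and 3.56% of the others.

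The arms carried similar shares of the sites and of compact regions. On 2L lay 128 sites (25.0%, exact 95% interval 21.3 to 29.0%), where 22.6% of compact regions lay. On 2R lay 124 (24.2%, 20.6 to 28.2%) against 24.7%, on 3L 116 (22.7%, 19.1 to 26.5%) against 24.7%, and on 3R 144 (28.1%, 24.3 to 32.2%) against 28.0%. Each of these intervals holds the share of all compact regions, which include the sites. The intervals take neighbouring regions as independent, and no test was made. Per Mb of the span covered by shared regions there were 5.75 sites on 2L, 5.87 on 2R, 4.77 on 3L and 5.16 on 3R.

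Folds of the sites differed somewhat between arms, with similar densities. In replicate 1 the median fold was 7.07 on 2L, 7.21 on 3R, 8.31 on 3L and 8.37 on 2R, while the median scaled density ran only from 36.9 to 38.03. In replicate 2 the median folds were 6.73, 6.79, 7.70 and 6.89 in the same order. Sites on 3L were above those on 2L and 3R in both medians, while 2R was the highest arm in replicate 1 and near 2L and 3R in replicate 2. No test of the arms was made. Over all compact regions the medians by arm stayed between 5.12 and 5.20 in replicate 1 and between 5.11 and 5.39 in replicate 2. The interquartile ranges of the sites overlapped between all arms.

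Some stretches held many dense sites. Over the 4 arms, 512 of 7151 shared regions were sites. The stretches were picked for holding the most sites, and each starts and ends at a site, so a higher share in them is built in. The most within 100 kb were 10 sites in the 87392 bp of chr2R:8843149-8930540, out of 19 shared regions there. Their folds ran from 6.60 to 14.40 in replicate 1 and from 4.90 to 13.39 in replicate 2. Next was chr3R:11983390-12081475 with 9 sites among 25 shared regions, and folds of 3.82 to 13.13 and 3.48 to 10.29. A second stretch of 2R, chr2R:6442569-6511196, held 8 sites among 20 shared regions. It ended in one of the sites little enriched over input, and its folds ran from 2.47 to 12.77 and from 2.51 to 11.33. Stretches of 7 sites were found on chr2L:16447843-16545289 and chr3L:17556064-17610872. Dense sites of quite different fold thus stood in the same 100 kb.

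The shortest site was chr3R:7094803-7095109, of 307 bp, with 155 tags in replicate 1 and 202 in replicate 2 and folds of 11.24 and 12.03. Its nearest shared region was 24513 bp away. Then came chr3L:18841403-18841819 (417 bp, folds of 12.71 and 11.23) and chr3R:15715542-15716004 (463 bp, 5.72 and 8.11). The longest was chr3R:25079103-25081987, of 2885 bp, with 1391 tags in a peak of replicate 1, 1777 in one of replicate 2, and folds of 8.22 and 6.43. It was followed by chr2L:4331675-4334493 (2819 bp, 7.42 and 7.17) and chr2R:17589860-17592670 (2811 bp, 5.15 and 4.51). Over the 512 sites, length and fold had a Spearman rho of -0.29 in replicate 1 and -0.28 in replicate 2, a description across regions that share libraries. Over all 6722 compact regions the rho was 0.12 and 0.07, of the opposite sign. The rule divides tags by length, so the choice of the sites touches this relation.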

How the data were processed

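Per the file headers, the authors called peaks with MACS separately in both replicates, each with its matching input. The p-value cutoff was 1e-05. The tag size was 38 bp and the band width 300 bp. The model fold was 6 in replicate 1 and 4 in replicate 2, and the fragment shift d was 111 and 78, per the file headers. The submitters' processing notes name Bowtie and the builds dm3 and BDGP5. Versions, and how reads with several matches were handled, are not given in the sources. The Poisson intervals of tags cover counting error only, and library protocols mention PCR and no molecular identifiers. The binomial intervals of shares take regions as independent, which regions close together are not, so they are given as a description.

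The tags of a peak are a count in whole numbers, as deposited by the authors, with no statement of whether duplicates were removed. The deposited fold enrichment is a ratio of ChIP over background expected from input. The deposited score is -10 times log10 of the p-value, and the deposited false discovery rate is in percent.

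In Python 3.11.15 (pandas 2.3.3, numpy 2.4.6, scipy 1.17.1, with figures from matplotlib 3.10.9), tags were divided by peak length, and by the unique tags of the header for values per 1000000 tags. Peaks overlapping by 1 bp or more were merged. Values of a region come from its densest peak in each replicate. The members, and the lists and rules used to describe them, were chosen with earlier results of these data known. Named regions were the 10 densest by mean rank, the 2 densest per arm, the 5 highest and lowest by fold, the 5 largest replicate ratios, 3 on each side of the density limit, the 3 longest and shortest, and the 100 kb stretches richest in sites. No test was made: there is 1 condition, and the rule used both replicates. Planned comparisons with genes and motifs were not run, since dm3 sequence and annotation were not used here.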

Additional observations from a re-analysis of the deposited data

How the results depend on the processing

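The number of sites followed the limits chosen. It was 231 with the top 5% of peaks, 1137 with the top 20%, 256 with peaks whose score reached their list's median and 55 with peaks of a false discovery rate under 5%, where fewer peaks enter by construction. That false discovery limit is not a limit on strength. In replicate 1 it removes the densest peak of the 9 sites at a score of exactly 3100, which carry a rate of 8.33%. The densest site, chr2R:14539913-14540998, is among them. The median fold (7.24, the mean of the medians of both replicates) rose to 9.36 when peaks were ranked by fold. The share of summits within 50 bp (76.8%) was 71.2% with the false discovery limit and 92.7% when ranked by fold. The share with a shared region within 5 kb (81.8%) was 30.9% with the false discovery limit, 68.8% with the score limit, both of which remove neighbours, and 77.9% when ranked by fold. Requiring a dense peak in a single replicate gave 665 to 760 sites, median folds of 7.16 to 7.305, summit shares of 76.9% to 77.6% and neighbour shares of 78.7% to 82.0%. Regions under 2000 bp, no length limit and an overlap of 50% of both peaks moved none of these 4 results beyond their limits (1.5 times for the count, the SD between replicates for the fold, the exact 95% interval for the shares). No paired analysis was possible because the inputs have no file here and no result comes from a test.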

Other observations

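Dividing the density of a site by its fold gives a quotient in tags per kb per 1000000 unique tags that is higher where the peak caller set a higher background. It is not a measured input value, since the fold refers to the summit and the density to the whole peak. Its median over the 512 sites was 4.91 in replicate 1 and 5.54 in replicate 2, against 4.03 and 4.28 over all compact regions. The density that chose the sites is the numerator of the quotient, so the rule itself favours a higher value. Across the 512 sites the Spearman rho of density with the quotient was 0.31 and 0.29. No higher background at the sites is read from these medians. The quotients of the replicates had a Spearman rho of 0.76 across the 512 sites, which share libraries and inputs. The highest values were at chr2R:20615386-20617027 in replicate 1 (19.8, with 15.3 in replicate 2) and at chr3L:16044623-16046795 in replicate 2 (15.6, with 14.4 in replicate 1). By arm the median was highest on 2L in both replicates, at 5.64 and 5.94, as it was over all compact regions, at 4.12 and 4.40.

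The 11 sites with a score of 3100 or more in both replicates had folds from 5.92 to 17.84 in replicate 1 and from 4.96 to 12.72 in replicate 2. The 9 sites at a score of exactly 3100 in replicate 1 all carried a false discovery rate of 8.33%, above the 4.84% median of the 512 sites. In replicate 2 the 24 sites at that score carried 1.2%, above the median of 0.73%. In each replicate, sites with a score above 3100 in that replicate were listed at a rate of 0 there.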
